A study of Canis lupus familiaris with 12 samples.

Results

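Interferon-stimulated genes are the transcripts that cells switch on when interferon binds its receptor. They were followed here in hippocampus of beagle dogs after rapid atrial pacing or a sham operation. The members were a list of 37 symbols, chosen by name and matched exactly to the gene column of the deposited table. Of the 37, 34 were found among 31158 gene models, and IFIT1, IRF7 and SAMD9 had no row under those symbols. A mean of at least 0.5 RPKM (reads per kilobase of exon, scaled to the assigned reads of each library) over the 6 hippocampal libraries was required for a test, and 30 members reached it. PARP9 lay just inside that minimum with a mean of 0.708 RPKM, and OAS3 lay just outside it with 0.374. Of the 30, 0 had a mean under the minimum in either arm, so none entered through 1 arm alone.

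The pacing group was beagles whose atria were paced rapidly for 2 weeks, and the control group was beagles given a sham operation; no genotype, age or drug is given for either. The study asked how atrial fibrillation, which such pacing is used to induce, relates to cognitive impairment. Of 12 samples in all, 6 were hippocampal messenger RNA, 3 per arm, and the rest were exosome microRNA, not analysed here. Whether the 3 samples of an arm were 3 dogs is not given in the labels, so p-values measure the spread between samples, which may be technical.

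Type I interferon signals through the receptor chains IFNAR1 and IFNAR2 and the kinases JAK1 and TYK2 to a transcription factor complex that holds STAT2 and IRF9. That complex enters the nucleus and switches on target genes through a response element in their promoters. The products sense viral RNA, degrade it, block its translation or feed back on the signal, and in brain microglia, endothelium, astrocytes and neurons can all express them. In whole tissue, fewer cells of a type and less RNA per cell cannot be told apart.

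Libraries held 35003483 to 51789497 assigned reads. Of 10 marker symbols of hippocampal neurons 9 were found, each with reads in every library. No other brain region was compared, so these reads cannot tell hippocampus from another region. The dentate granule marker PROX1 stood between 4.82 and 7.90 RPKM and the pyramidal gene NEUROD6 between 188 and 345. Sham replicate 2 stood apart in composition, with the lowest mean of the neuronal markers and the highest of the oligodendrocyte and astrocyte markers. The choroid plexus gene TTR ran from 2.46 RPKM in sham replicate 1 to 449 in sham replicate 2. Values without each library are given where they change a result.

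Most of the tested members were higher in pacing by a modest amount, and no member passed the test. A further list of interferon-induced genes, given below, was split, with 12 of 23 tested genes higher and 11 lower. Of the 30 tested members, 26 had a log2 difference above 0 (86.7%), against 41.1% of all 16090 genes tested. Their median log2 difference, pacing minus sham on log2(RPKM + 1), was 0.21, against -0.04 for all genes. Every pacing library lay above every sham library for 8 members (26.7%), against 4.92% of all genes. Every pacing library lay below every sham library for 0 members, against 11.3% of all genes. By limma with Benjamini-Hochberg adjustment over all genes 0 members passed at 0.05, where 0.0249% of all genes did, and limma-voom on the recovered reads also passed 0. At an unadjusted limma p under 0.05 there were 9 members, all higher. Of all genes, 459 (2.85%) were higher at that p and a further 1014 were lower. The number of members at that p was 3 without pacing replicate 1 and 4 without pacing replicate 3 or sham replicate 3. The share of all genes at that p was taken with all libraries only, so these counts have no background. The number of members with arms apart was 20 without pacing replicate 2. Since the list was chosen with earlier results of these libraries known, these shares describe it and carry no test.

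**Figure D1:**
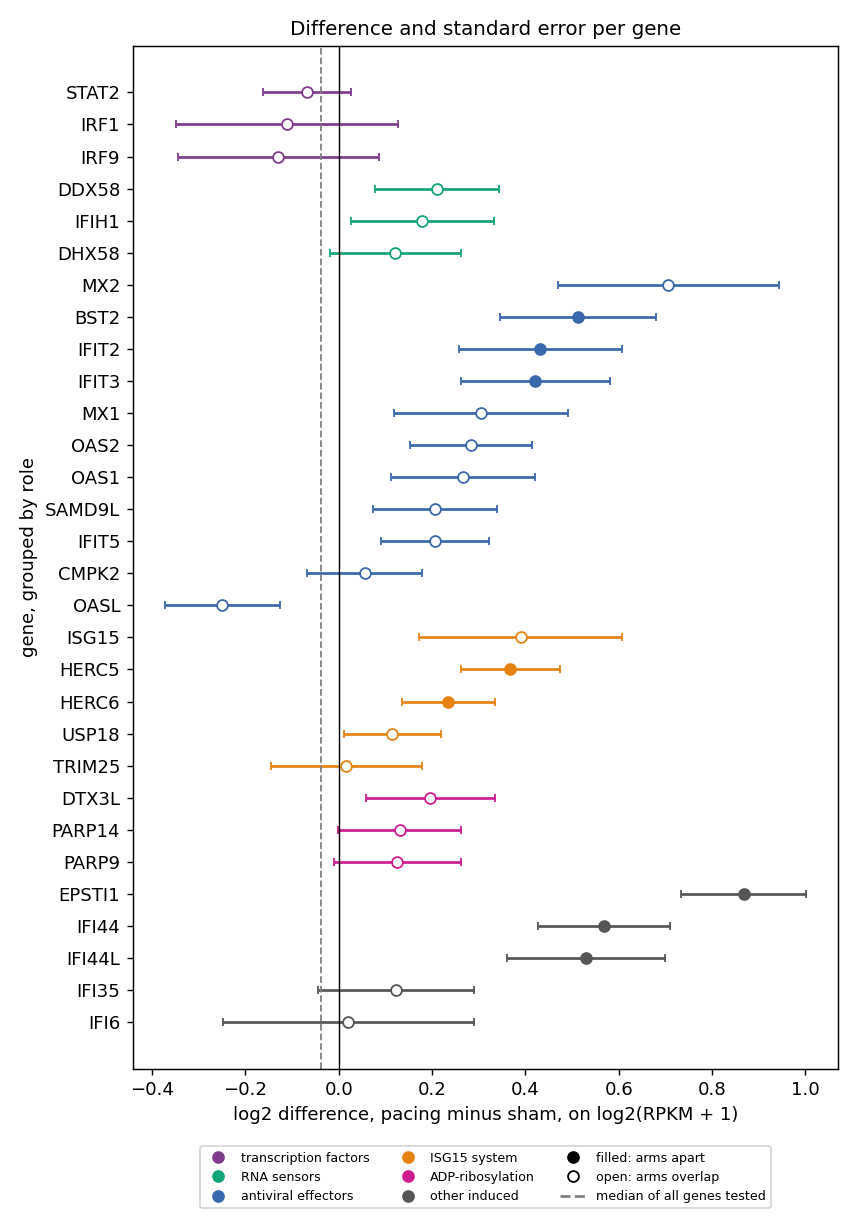
Log2 difference, pacing minus sham, on the log2(RPKM + 1) scale for the 30 tested genes, grouped by role. Bars are 1 standard error of the limma fit (3 libraries per arm), filled points mark genes whose arms did not overlap, and the dashed line is the median of all genes tested (-0.04). The 3 transcription factors and OASL lie below 0 and the other 26 above it.

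The 3 tested transcription factors had lower means in pacing, by differences within 1 SE. STAT2, a subunit of the complex, stood at 4.78, 4.45 and 4.95 RPKM in pacing replicates 1 to 3 and at 5.19, 4.75 and 5.07 in sham (log2 difference -0.07 ± 0.09; the error of every log2 difference is the SE of the limma fit). IRF9, the DNA-binding subunit, stood at 9.998, 8.95 and 8.51 RPKM in pacing and at 8.04, 14.9 and 8.48 in sham (-0.13 ± 0.22). IRF1, a factor induced mainly by interferon gamma, stood at 3.11, 2.47 and 2.96 RPKM in pacing and at 2.01, 4.97 and 2.96 in sham (-0.11 ± 0.24). The arms overlapped for all 3, and their adjusted p ran from 0.838 to 0.904. For IRF9 and IRF1 a single library, sham replicate 2, was far above the rest, and without it the log2 difference was 0.13 for IRF9 and 0.15 for IRF1.

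Sensors of foreign RNA were higher on average with overlapping arms. DDX58, which encodes RIG-I, the sensor of short RNA with a 5' triphosphate, stood at 5.53, 3.78 and 4.45 RPKM in pacing and at 4.004, 3.64 and 3.73 in sham (log2 difference 0.21 ± 0.13, adjusted p = 0.643). Its pacing replicate 2 lay within the sham range and the other pacing libraries above it. IFIH1, which encodes MDA5, the sensor of long double-stranded RNA, stood at 1.45, 1.03 and 1.82 RPKM in pacing and at 0.948, 1.44 and 1.03 in sham (0.18 ± 0.15, adjusted p = 0.724). Pacing replicates 1 and 3 of IFIH1 were the highest libraries, with sham replicate 2 just under them. DHX58, which encodes LGP2, a modulator of both sensors, stood at 1.33, 1.24 and 1.38 RPKM in pacing and at 1.30, 1.41 and 0.736 in sham (0.12 ± 0.14, adjusted p = 0.798). Sham replicate 3 alone lay low, and without it the log2 difference of DHX58 was -0.03. DDX60, a helicase of the same response, was under the minimum with 213 reads in pacing and 104 in sham. Its pacing libraries stood at 0.242, 0.257 and 0.326 RPKM, all above the sham libraries at 0.122, 0.170 and 0.0250.

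Among the direct antiviral effectors, 10 of 11 tested genes were above 0, against 41.1% of all genes, with a median log2 difference of 0.28. The IFIT proteins bind foreign RNA and block its translation. IFIT3 stood at 3.63, 3.47 and 3.30 RPKM in pacing and at 2.85, 2.69 and 1.61 in sham (log2 difference 0.42 ± 0.16, adjusted p = 0.512). IFIT2 stood at 2.15, 1.61 and 2.5 RPKM in pacing and at 1.56, 1.52 and 0.813 in sham (0.43 ± 0.17, adjusted p = 0.536). The arms were apart for both, but for IFIT2 the gap was small, from 1.56 in sham replicate 1 to 1.61 in pacing replicate 2. IFIT5 overlapped, at 4.16 ± 0.198 RPKM in pacing against 3.49 ± 0.529 in sham (SD, n = 3 each).

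BST2, or tetherin, holds budding virus at the cell surface. It stood at 7.35, 4.95 and 4.94 RPKM in pacing and at 4.26, 3.69 and 3.12 in sham (log2 difference 0.51 ± 0.17, adjusted p = 0.455). All pacing libraries were above all sham libraries, and pacing replicate 1 was the highest by a wide margin.

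The MX genes encode dynamin-like GTPases that trap viral components. MX1 was by far the most abundant member, with a mean of 63.1 RPKM over all libraries, above 96.6% of all gene models. It ranged from 61.6 to 73.5 RPKM in pacing and from 41.2 to 65.2 in sham (log2 difference 0.31 ± 0.19, adjusted p = 0.635). The low end was sham replicate 2 alone, and the other sham libraries lay above the lowest pacing library. Without sham replicate 2 the log2 difference of MX1 was 0.09. MX2, its neighbour on chromosome 31, was far less abundant, at 2.08, 0.987 and 2.59 RPKM in pacing and at 1.03, 0.415 and 0.760 in sham. It had the largest log2 difference of the effectors (0.71 ± 0.24, adjusted p = 0.465), yet pacing replicate 2 lay below sham replicate 1.

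The OAS enzymes make the short 2-5A chains that activate the RNA-degrading enzyme RNase L. OAS1 had a pacing mean of 1.89 ± 0.428 RPKM against 1.40 ± 0.333 in sham, and OAS2 one of 0.979 ± 0.195 against 0.629 ± 0.210 (SD, n = 3 each). Both overlapped between arms, with log2 differences of 0.27 and 0.28. OAS3 was under the minimum, with 173 reads in pacing and 149 in sham, and its libraries overlapped at 0.292 to 0.556 RPKM against 0.285 to 0.380. OASL, a related gene whose human product lacks that enzyme activity, went the other way. It stood at 7.39, 7.70 and 8.01 RPKM in pacing and at 7.80, 9.94 and 10.5 in sham (-0.25 ± 0.12, adjusted p = 0.587). Sham replicate 1 lay within the pacing range. OASL was also the most abundant of these 4 genes, at a mean of 8.55 RPKM over all libraries.

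RSAD2, or viperin, makes a chain-terminating nucleotide and is among the most inducible genes of the response. It was under the minimum, with 69, 10 and 77 reads in pacing replicates 1 to 3 and 6, 21 and 8 in sham. The ratio of read shares, pacing over sham, was 5.17 (95% interval 3.56 to 7.68, exact, counting error only). Pacing replicates 1 and 3 were far above all other libraries, while pacing replicate 2 had 0.0580 RPKM against 0.0961 in sham replicate 2. Its neighbour CMPK2, a nucleotide kinase that supplies the viperin reaction, overlapped between arms, with a pacing mean of 1.31 ± 0.201 RPKM against 1.23 ± 0.244 for sham (SD, n = 3 each). SAMD9L, a restriction factor of poxviruses, stood at 5.02 ± 0.825 against 4.20 ± 0.440 with overlapping arms.

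ISG15 is a ubiquitin-like protein that is joined to other proteins, HERC5 is its main ligase in human cells, and USP18 removes it and dampens the receptor. All 5 tested genes of this system were above 0, 1 of them barely, against 41.1% of all genes, with a median log2 difference of 0.24. HERC5 stood at 0.882, 0.799 and 1.17 RPKM in pacing and at 0.567, 0.468 and 0.489 in sham (0.37 ± 0.11, adjusted p = 0.402). HERC6, its close relative, stood at 4.15, 3.52 and 3.78 RPKM in pacing and at 2.96, 3.06 and 3.23 in sham (0.24 ± 0.10, adjusted p = 0.544). The arms were apart for both ligases. ISG15 itself stood at 2.00, 0.615 and 1.44 RPKM in pacing and at 0.871, 0.729 and 0.626 in sham (0.39 ± 0.22, adjusted p = 0.613). Pacing replicate 2 had the lowest ISG15 value of all libraries, while replicates 1 and 3 were the highest. These values rest on few reads, 142 in pacing and 91 in sham. USP18 stood at 1.81 ± 0.102 RPKM against 1.60 ± 0.220, and TRIM25, the ligase that activates RIG-I, at 1.22 ± 0.0892 against 1.22 ± 0.494 (SD, n = 3 each). The log2 difference of TRIM25 was 0.02 ± 0.16, and its sign changed in 3 of the alternatives.

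The ADP-ribosylation genes lie together on chromosome 33. PARP9 and its partner DTX3L form a ligase complex of this response, and PARP14 is a related transferase. DTX3L stood at 3.77, 2.62 and 3.57 RPKM in pacing and at 2.71, 3.11 and 2.45 in sham (log2 difference 0.20 ± 0.14). PARP14 stood at 1.23, 0.758 and 1.13 RPKM in pacing and at 0.808, 1.07 and 0.703 in sham (0.13 ± 0.13). PARP9 stood at 0.851, 0.498 and 1.01 RPKM in pacing and at 0.502, 0.768 and 0.617 in sham (0.13 ± 0.14). In each, pacing replicates 1 and 3 were the highest libraries and pacing replicate 2 lay within or below the sham range. Their adjusted p ran from 0.677 to 0.781. PARP9 and DTX3L share 71 exon bases on opposite strands, 2.22% of the exon length of PARP9, and reads there cannot be assigned since the strand setting of the counting is not stated.

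The remaining induced genes have less settled molecular roles, and EPSTI1 among them had the largest log2 difference of the 30 tested members. EPSTI1, named for its induction in epithelial cells by stroma and also interferon-inducible, stood at 21.7, 18.1 and 21.1 RPKM in pacing and at 12.4, 10.6 and 9.06 in sham (log2 difference 0.87 ± 0.13, adjusted p = 0.194). The lowest pacing library was well above the highest sham library, and EPSTI1 ranked 23 by p among all genes tested. Its adjusted p ranged over the alternatives from 0.0451 without sham replicate 1 to 0.852 without pacing replicate 1. It passed in 1 of 17, without sham replicate 1, where 95 genes of the whole table passed, against 4 with all libraries. IFI44, a cytoplasmic protein induced by interferon, stood at 7.50, 5.41 and 7.12 RPKM in pacing and at 4.15, 4.67 and 3.66 in sham (0.57 ± 0.14, adjusted p = 0.36). IFI44L, its relative, stood at 2.17, 1.29 and 2.44 RPKM in pacing and at 0.946, 1.26 and 0.879 in sham (0.53 ± 0.17, adjusted p = 0.455). The arms were apart for all 3 genes, though for IFI44L pacing replicate 2 exceeded sham replicate 2 by little.

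IFI6 and IFI35 overlapped between arms. IFI6, a small membrane protein that opposes apoptosis, had a pacing mean of 9.10 ± 2.84 RPKM against 9.0 ± 2.96 for sham, and IFI35 one of 1.82 ± 0.512 against 1.58 ± 0.36 (SD, n = 3 each). XAF1, a pro-apoptotic gene, was under the minimum with 54 reads in pacing and 29 in sham. It stood at 0.402, 0.388 and 0.272 RPKM in pacing and at 0.270, 0.153 and 0.0434 in sham, with the lowest pacing value barely above the highest sham value. Exons of an unnamed model on the opposite strand, LOC111095866, cover 54.1% of the exon length of XAF1, so its reads are uncertain.

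**Figure D2:**
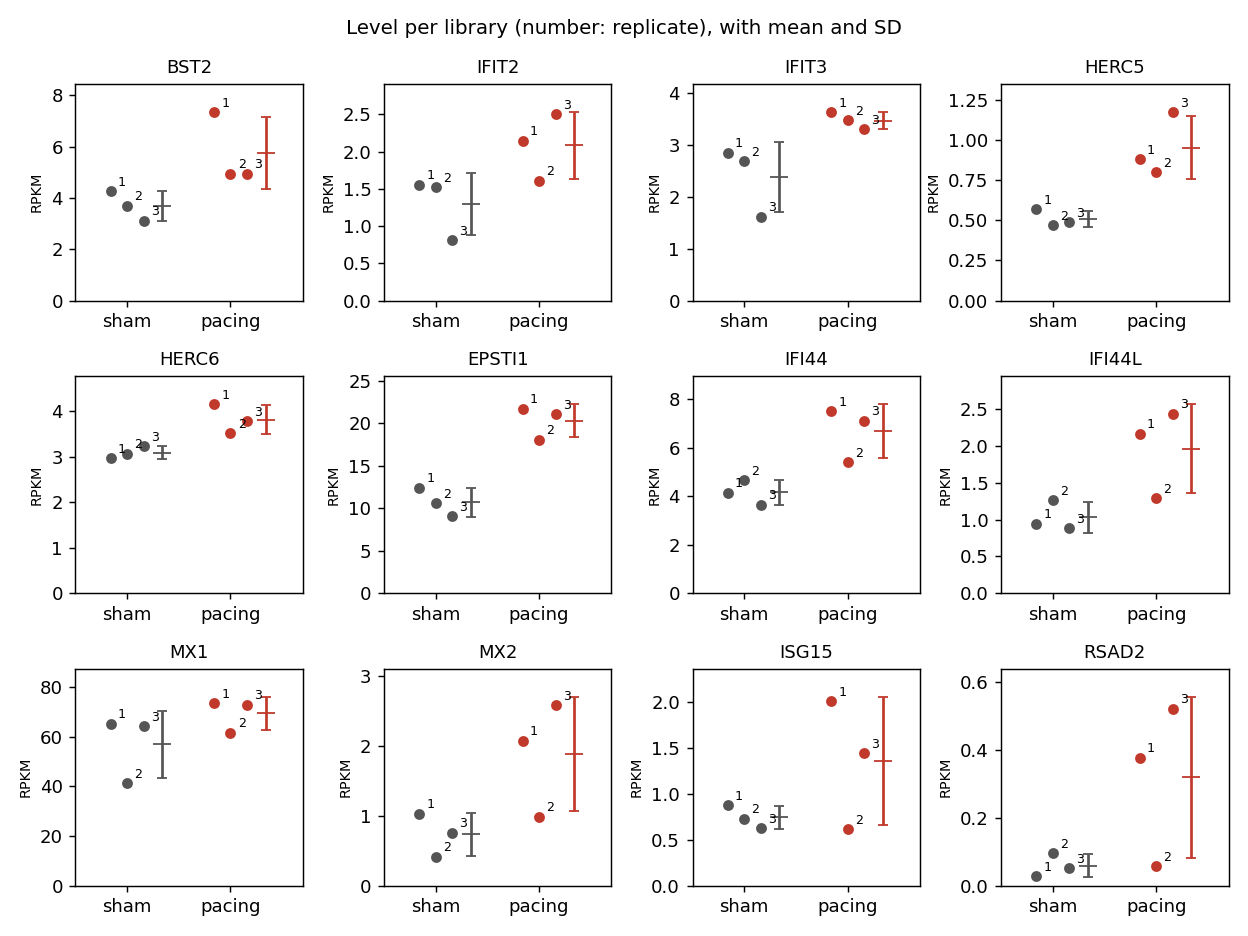
RPKM per library in sham (grey) and pacing (red) for the 8 tested genes whose arms did not overlap and for MX1, MX2, ISG15 and RSAD2, with each axis starting at 0. Numbers give the replicate, and the bar beside each group is the mean with its SD (n = 3). In MX2, ISG15 and RSAD2 pacing replicate 2 lies among or below the sham libraries and replicates 1 and 3 lie above them.

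The pacing libraries differed from each other in a way that ran through most of the members. Pacing replicate 2 was the lowest of the pacing libraries for 23 of 30 tested members (76.7%), against 33.4% of all genes tested. The highest of all libraries was pacing replicate 1 for 14 members and pacing replicate 3 for 9. Pacing replicates 1 and 3 both lay above every sham library for 20 members. Without pacing replicate 2 the arms were therefore apart for 20 of 30 (66.7%), against 6.77% of all genes in that setting, and the median log2 difference was 0.30. Averaged over the tested members, each relative to its mean over libraries on the log2(RPKM + 1) scale, pacing replicates 1 and 3 stood at 0.21 and 0.18. Pacing replicate 2 stood at -0.04, close to the highest sham library, replicate 2, at -0.06. Sham replicates 1 and 3 stood at -0.10 and -0.19.

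**Figure D3:**
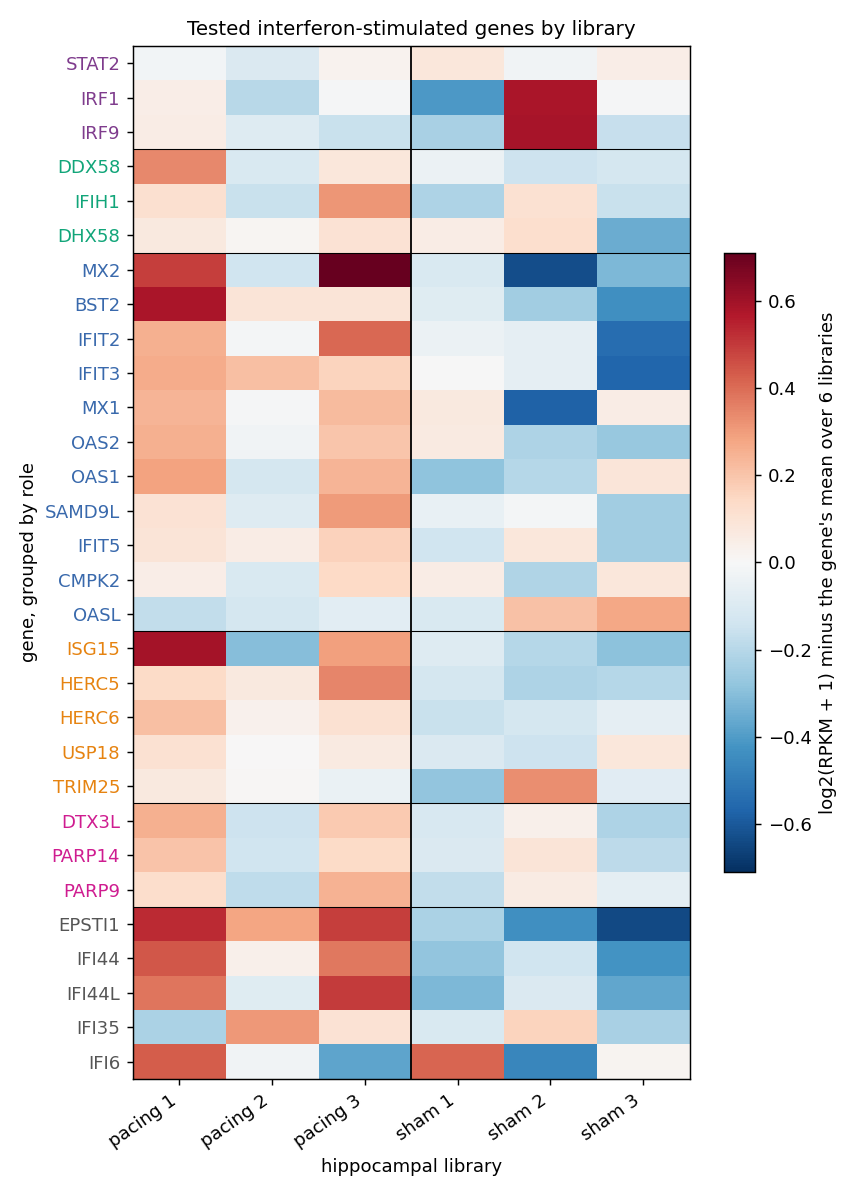
Log2(RPKM + 1) of each tested gene relative to its own mean over the 6 libraries (red above, blue below), with pacing libraries left of the vertical line and sham libraries right. Rows are grouped by role, from transcription factors at the top to other induced genes at the bottom. Pacing replicates 1 and 3 are above the mean for most genes, pacing replicate 2 is near it, and IRF1, IRF9 and TRIM25 are highest in sham replicate 2.

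Several members sit side by side in the genome, and neighbours were compared for their differences. Coordinates are as the deposited table gives them, with the sequence names of assembly CanFam3.1. IFI44 (chromosome 6, 68361724 to 68377991) and IFI44L (68382157 to 68400880) differed by similar amounts, 0.57 and 0.53 on the log2 scale. IFIT2 (chromosome 4, 63020 to 71734) and IFIT3 (87987 to 105879) also did, at 0.43 and 0.42. HERC6 (chromosome 32, 11624883 to 11751305) and HERC5 (11756487 to 11800695) were both apart between arms, at 0.24 and 0.37. MX2 (chromosome 31, 35860596 to 35883607) and MX1 (35898206 to 35929802) differed more from each other, at 0.71 and 0.31. EPSTI1 lies alone among the members on chromosome 22, from 7862068 to 7956077. No other gene model lies between the genes of these 4 pairs. Reads shared between close relatives such as MX1 and MX2, HERC5 and HERC6 or the IFIT genes could be split by the counting, and this was not tested.

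The genes upstream of the members were split between directions. Of 12 interferon ligand symbols 1 was found, IFNE, with 2 reads in pacing and 4 in sham. Of 10 tested genes of the receptors and their signalling partners 4 were higher and 6 lower, 0 passed, and the median log2 difference was -0.04. The receptor chains went opposite ways. IFNAR1 stood at 8.64, 8.69 and 9.69 RPKM in pacing and at 7.90, 8.55 and 6.46 in sham (adjusted p = 0.611), and IFNAR2 at 4.63, 4.35 and 5.0 against 5.74, 6.42 and 5.65 (adjusted p = 0.474). The kinase JAK2 stood at 9.76 ± 0.825 against 7.99 ± 1.47 (SD, n = 3 each).

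Among 8 tested genes of the sensor pathways 4 were higher and 4 lower, with 0 passing. TMEM173, which encodes the DNA-response adaptor STING, stood at 1.61, 1.93 and 1.79 RPKM in pacing and at 1.44, 1.25 and 0.767 in sham (log2 difference 0.38, adjusted p = 0.492). MAVS, the adaptor of the RNA sensors, stood at 1.13, 1.04 and 1.07 against 1.28, 1.32 and 1.40 (-0.17, adjusted p = 0.610), and IRF3, the factor that both adaptors activate, at 3.15 ± 0.430 against 4.23 ± 1.10 (SD, n = 3 each). Among 10 tested genes that restrain the response 5 were higher and 5 lower, with 0 passing. The phosphatases PTPN2 and PTPN1 were lower (-0.25 and -0.19, adjusted p = 0.543 and 0.611) and PTPN6 was higher (0.20, adjusted p = 0.720).

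A further list of 41 interferon-induced symbols, not among the members, had 30 found and 23 tested. Of these 12 were higher and 11 lower, 0 passed, and the median log2 difference was 0.03. TRIM22, an antiviral ligase, stood at 0.957, 0.662 and 1.12 RPKM in pacing and at 0.340, 0.389 and 0.275 in sham. The chemokine CCL5 stood at 0.755, 0.673 and 0.936 against 0.131, 0.405 and 0.323. TRIM22 and CCL5 had sham means under 0.5 RPKM and so reached the minimum only through the pacing arm, where they had to be higher, and no test is given for them. TDRD7 was lower, at 3.02 ± 0.0848 against 3.74 ± 0.663 (SD, n = 3 each). GBP5, a guanylate-binding protein induced by interferon gamma, was under the minimum and chosen after its value was seen. It had 20 reads in pacing and 222 in sham, the opposite direction to most members. The 9 genes of MHC class I processing were split as well, 4 higher and 5 lower. The light chain B2M stood at 97.0 ± 5.67 RPKM in pacing against 74.2 ± 10.8 in sham, and the peptide transporter TAP2 at 6.74 ± 0.258 against 9.38 ± 0.809 (SD, n = 3 each).

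**Figure D4:**
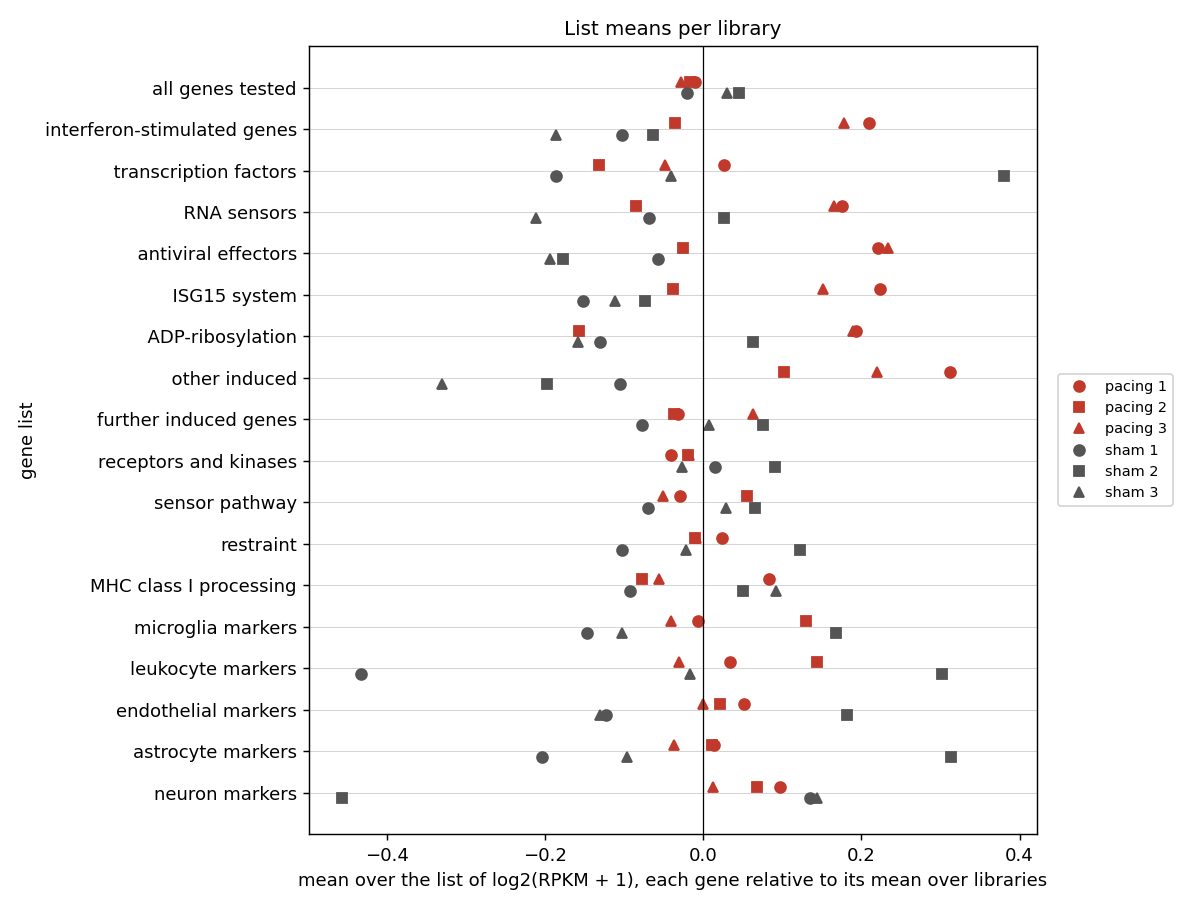
Mean over the tested genes of each list of log2(RPKM + 1), each gene relative to its mean over libraries, in each pacing (red) and sham (grey) library. The interferon-stimulated genes run from -0.04 to 0.21 in pacing and from -0.19 to -0.06 in sham without overlap, and the arms overlap for the further induced genes, the upstream lists and the marker lists of other cell types shown.

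Cell type markers were measured beside the members. Of 13 microglial markers found and tested 7 were higher and 6 lower. Their summed level ran from 129.6 to 151 RPKM in pacing and from 118 to 195 in sham, with no marker at 0. TMEM119 and P2RY12 were higher (log2 differences 0.46 and 0.51, adjusted p = 0.36 and 0.529). Of 12 endothelial markers 6 were higher and 6 lower, with a summed level of 54.4 to 58.3 RPKM in pacing and 43.6 to 59.2 in sham and no marker at 0. Of 20 leukocyte symbols 18 were found and 7 tested, 5 of them higher, 2 to 3 of the 18 at 0 reads in a pacing library and 3 to 5 in a sham library, with a summed level of 29.4 to 32.3 RPKM in pacing and 15.3 to 45.8 in sham. T cell genes were scarce, and those under the minimum were chosen after their values were seen. Among those named here only CD4 was lower in pacing. Arms overlapped for CD8A (12 reads in pacing, 1 in sham) and CD8B (92 and 67). LCK had a mean of 0.752 RPKM in pacing and 0.579 in sham, also with overlapping arms. Pacing libraries lay above sham libraries for CD3E (43 reads in pacing, 9 in sham) and CD3G (18 and 0), and below them for CD4 (15 and 59), while CD3D had 6 reads in each arm. CD2 had a mean of 0.967 RPKM in pacing and 0.384 in sham, and reached the minimum only through the pacing arm. Of 6 tested ependymal markers 3, FOXJ1, HYDIN and DNAH11, had pacing means under 0.5 RPKM and reached the minimum only through the sham arm. Those 3 had to be lower in pacing, so no count or median of the 6 is given. The others, DNAH9, CFAP43 and SPAG6, were lower with overlapping arms (log2 differences -0.27, -0.63 and -0.55, adjusted p = 0.695, 0.628 and 0.529). The summed level of the ependymal list was 2.77 to 5.22 RPKM in pacing and 4.38 to 9.67 in sham, with 1 marker at 0 reads in pacing replicate 2 and 1 in sham replicate 2. Of 9 hippocampal neuron markers 8 were higher and 1 lower, with a median log2 difference of 0.30, above the 0.21 of the members, and 0 with arms apart. Their summed level was 563 to 779 RPKM in pacing and 459 to 666 in sham, with no marker at 0. The part of these cells in the values of the members was not tested. On the centred log2 scale the microglial markers averaged -0.01, 0.13 and -0.04 in pacing replicates 1 to 3. In sham replicates 1 to 3 they averaged -0.15, 0.17 and -0.10.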

How the data were processed

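Per the labels' protocols, a kit that keeps strand was used for the hippocampal mRNA. Trimmomatic 0.36, STAR 2.5.3a and featureCounts are named in the submitters' processing notes; the settings, strand included, are not given there. The deposited values are RPKM. RPKM times the deposited exon length returned whole reads (within 0.001) for 100% of values in each library, which gave the read totals.

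Values were tested in R 4.3.3 with limma 3.58.1 (limma-trend) on log2(RPKM + 1), which understates the change of low genes, for genes with a mean of at least 0.5 RPKM, pacing minus sham, with no covariate. P-values were Benjamini-Hochberg adjusted over all genes tested, at 0.05. The members and lists were chosen with earlier results of these data known. Every member was accounted for. Values in every library are given for the 3 members of each role with the smallest p, for lower members and for members whose arms did not overlap. From the other lists up to 3 genes with the smallest p were named, apart from a few not reported here. Read-share intervals cover counting error only. Promoter motifs and their alternatives were not run, because no promoter sequence was used here.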

Additional observations from a re-analysis of the deposited data

How the results depend on the processing

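Over 17 alternatives 24 of 30 tested members kept the direction of their log2 difference, and the median over the members stayed above 0, at 0.16 to 0.30 with 1 library left out. Members past the threshold numbered 0 in every alternative, except that leaving out single libraries gave 0 to 1 (EPSTI1 without sham replicate 1). The whole-table count of 4 called genes became 7 with no filter, 23 with library weights, 7 at a threshold of 0.1 and 3 to 95 with 1 library left out. The highest count came without sham replicate 1, and the count was 9 without sham replicate 2. The replicate block, a fit with the replicate number as a term, gave 7 called genes. The numbers share no stated origin, same-numbered libraries correlated at -0.11, 0.06 and -0.01 in their deviations from the arm means, and 1 of 6 libraries correlated best with its own number. The block changed no call of a member.

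The 6 members that changed sign had small differences. With library weights IRF9 stood at 0.016 and IFI6 at -0.027. With 1 library left out, the log2 difference ran from -0.28 to 0.13 for IRF9, -0.34 to 0.15 for IRF1, -0.21 to 0.23 for IFI6, -0.12 to 0.19 for TRIM25, -0.038 to 0.12 for CMPK2 and -0.025 to 0.21 for DHX58. The causes were not tested. Members with arms apart numbered 8 to 20 with 1 library left out, against 6.77% to 12.8% of all genes. The 20 came without pacing replicate 2, the lowest pacing library for most members, where the share of all genes was 6.77%. With any other library left out 8 to 11 members were apart. Members at an unadjusted p under 0.05 numbered 3 to 10 with 1 library left out, with no share of all genes taken in those settings. Depth limits ISG15, RSAD2, OAS3, DDX60 and XAF1, each with few reads.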
